A study of Macaca fascicularis with 2 samples.

Results

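The genes described are 10 of the retinoic acid response: 4 receptors (RARA, RARB, RARG and RXRA), 2 cellular binding proteins (CRABP1 and CRABP2) and 4 genes that respond to retinoic acid or act beside it at meiotic entry (STRA8, ZGLP1, MEIS1 and MEIS2). They were chosen by name, with earlier results of these data known, and all 10 are among the 18446 genes of the count table. The cells came from whole fetal ovaries of Macaca fascicularis, the cynomolgus monkey, 1 fetus at embryonic day 84 (E84) and 1 at E116, with no treatment named. Both ovaries of a fetus were dissociated together and made into 1 droplet library with the 10x Genomics 3′ v3 chemistry. Barcodes in the table end in 1 or 2 and no source used here says which ending is which stage, so the values cover both stages together.

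Retinoic acid is a derivative of vitamin A that enters cells and binds nuclear receptors of the RAR family, which sit on DNA as pairs with an RXR partner. CRABP proteins hold retinoic acid in the cytoplasm, CRABP2 being known for handing it to the receptors and CRABP1 for its part in keeping it bound or passing it to breakdown. In the fetal ovary the signal is best known for turning on STRA8 in germ cells that leave mitosis for meiosis, and ZGLP1 is a nuclear factor of the same transition that acts downstream of BMP signals.

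Each value is a sum of unique molecular identifiers (UMIs, single counted RNA molecules) over a group of cells, scaled to 1000000 UMIs of the group (CPM) with an exact 95% Poisson interval. With 1 library per stage there are no replicates, so intervals cover counting error only, no test was made, and the 2 sets of barcodes serve only as unlabelled batches. The table holds 20967 cells with a median of 3756 UMIs, 3130 in the 10621 cells ending in 1 and 4555.5 in the 10346 ending in 2, and the endings share 27 barcodes. Cells were placed in groups by UMIs of marker genes, none of them among the 10 genes: 327 mitotic-like (marked by NANOG, TFAP2C and SOX17 among others), 557 premeiotic-like (REC8, MSX1, RFX6), 1606 early meiotic-like (SYCP1, SPO11, DMC1), 42 meiotic cells with oocyte markers and 489 oocyte-like (FIGLA, NOBOX, ZP3) germ cells. Somatic groups were 4149 granulosa-like, 4212 stroma-like, 694 surface epithelium-like, 306 pericyte-like, 424 endothelial-like, 94 macrophage-like and 631 erythroid-like cells. Together they hold 64.5% of the cells, and the gates favour deeper cells. Cells whose leading class scored less than 2 times the next class were set aside. Kept cells can still hold some markers of another class. Several genes that were not used for gating followed the names, with SYCP2 at 1162 CPM in early meiotic-like cells, COL1A1 at 10417 in stroma-like and PTPRC at 351 in macrophage-like cells. BMP15, a gene of growing oocytes, had 9 UMIs in oocyte-like cells and none elsewhere. An exception was VWF, an endothelial gene that stood at 239 CPM in endothelial-like but 633 in oocyte-like cells. WT1 was at 233 CPM in granulosa-like and 327 in surface epithelium-like cells. It also reached 115 in endothelial-like and 87.8 in pericyte-like cells, above 58.1 in stroma-like cells. GATA4 was low and hardly set the groups apart, at 2.59 CPM in granulosa-like, 2.03 in surface epithelium-like and 1.91 in stroma-like cells. The barcode sets were unequal along the germ line: 318 of the mitotic-like cells ended in 1 and 9 in 2, against 17 and 472 of the oocyte-like cells, and 343 and 214 of the premeiotic-like cells.

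The premeiotic-like step was where these genes were high in germ cells. Over the other germ cell steps, 9 of the 10 were at least 2-fold higher in premeiotic-like cells, against 7.91% of the 13733 genes compared, and CRABP1 was the only one at least 2-fold lower, against 17.0%. The median log2 ratio was 2.73 over the 10 genes and −0.07 over all genes compared. Within the barcodes ending in 1 the same count was 9, and within those ending in 2 it was 8, with RXRA below 2-fold. From the premeiotic-like to the early meiotic-like step all 10 genes were at least 2-fold lower, against 14.1% of 12328 genes, and none was higher, against 16.3%. The count was 10 in barcodes ending in 1 and 9 in those ending in 2, where CRABP1 had too few UMIs to show a direction. The premeiotic-like step was gated on MSX1 and RFX6 among others, and their shared peak with ZGLP1 was already known from these data. STRA8 was also a known gene of that stage. For such members the excess over the share of all genes was partly set in advance. The shares of all genes are therefore given as background and do not test the set.

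**Figure D1:**
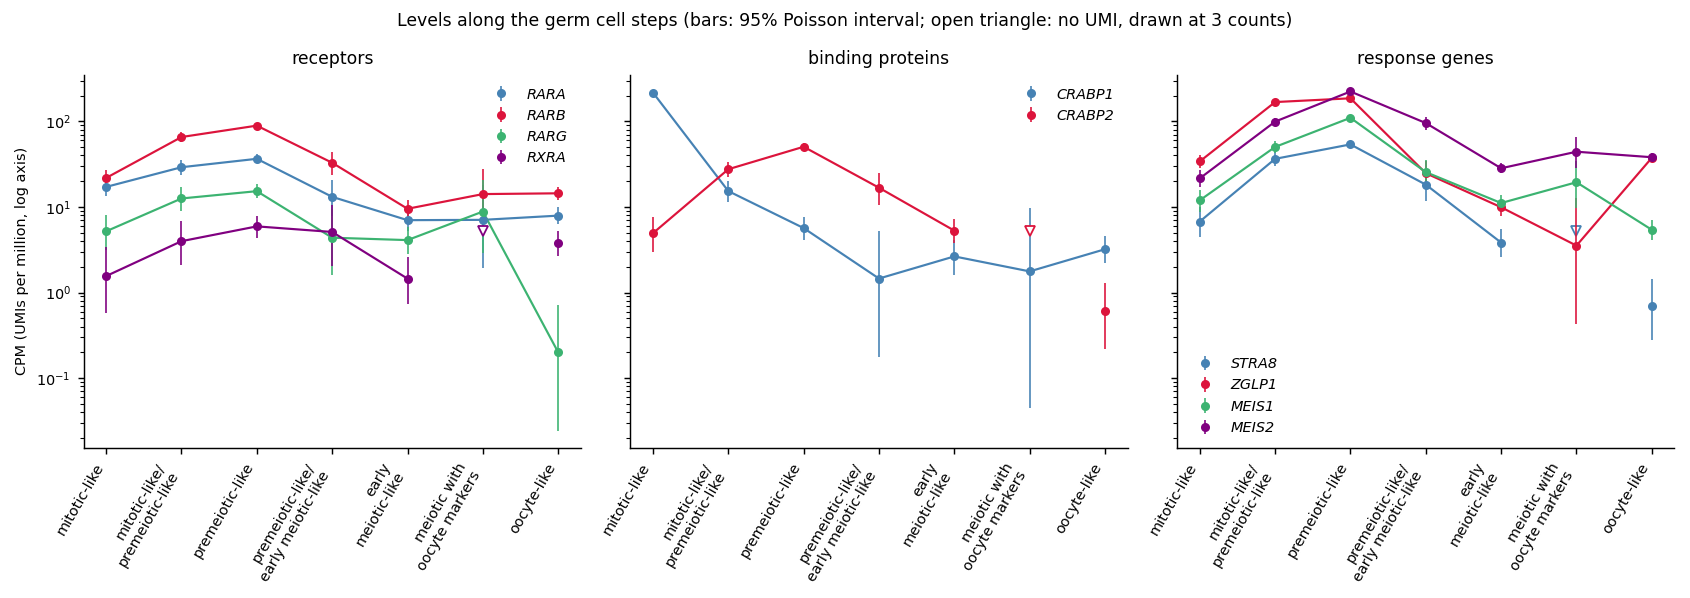
CPM (log axis) of the receptors, binding proteins and response genes in the 5 germ cell steps and in cells between steps, with 95% Poisson intervals and open triangles where no UMI was seen. The lines of 9 genes peak at the premeiotic-like step, RARB at 89.1 and MEIS2 at 223 CPM, whereas CRABP1 is highest in mitotic-like cells at 217 CPM.

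Cells that carried markers of neighbouring steps lay between those steps. In the 197 cells with both mitotic and premeiotic markers, STRA8 was at 36.5 CPM (30.2 to 43.7), RARB at 65.6 CPM (57.1 to 75.0) and MEIS2 at 99.3 CPM (88.8 to 111), in each case above the mitotic-like and below the premeiotic-like level. ZGLP1 had already reached 168 CPM (154 to 183) there, and its interval overlapped that of premeiotic-like cells. CRABP1 had dropped to 15.3 CPM (11.4 to 20.2). In the 81 cells with both premeiotic and early meiotic markers, STRA8 was back at 18.2 CPM (11.8 to 26.9) and ZGLP1 at 24.8 CPM (17.2 to 34.7), while MEIS2 was still at 95.5 CPM (79.9 to 113). No doublet caller was run, and the part of droplets with more than 1 cell in these values was not tested. Their median depth of 15226 and 15753 UMIs was above that of the mitotic-like (11026) and premeiotic-like (10947) cells.

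Among germ cells RARA, RARB and RARG were all highest at the premeiotic-like step. RARB encodes retinoic acid receptor beta, whose gene is itself a classical target of retinoic acid. Its level was 21.8 CPM (17.4 to 27.0) in mitotic-like, 89.1 CPM (82.5 to 96.1) in premeiotic-like and 9.53 CPM (7.45 to 12.0) in early meiotic-like cells. Meiotic cells with oocyte markers had 14.1 and oocyte-like cells 14.4 CPM, which did not differ beyond their intervals. In premeiotic-like cells the barcode sets gave 55.6 and 123 CPM (endings 1 and 2, as in all such pairs), so the level differed between the sets. The log2 ratio of premeiotic-like cells to the other steps was 2.67 (2.47 to 2.87), and 2.09 and 3.06 by barcode set. In somatic cells RARB was high in endothelial-like (39.1 CPM, 33.3 to 45.6) and stroma-like cells (30.0 CPM, 27.8 to 32.4), lower in pericyte-like cells (18.3 CPM, 12.7 to 25.6) and low in granulosa-like (6.0 CPM, 5.25 to 6.83) and surface epithelium-like cells (2.44 CPM, 1.44 to 3.85).

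RARA, the broadly expressed receptor alpha, was higher in the somatic groups together than in the germ cell steps together, but not in every somatic group. Macrophage-like (55.2 CPM, 35.0 to 82.8), stroma-like (45.1 CPM, 42.4 to 48.0) and endothelial-like cells (44.6 CPM, 38.4 to 51.6) had the highest levels, with overlapping intervals. Among germ cells only the premeiotic-like step, at 36.5 CPM (32.3 to 41.1), came near them. Below that level lay surface epithelium-like (29.0 CPM), granulosa-like (26.1), pericyte-like (21.5) and erythroid-like cells (2.76). Mitotic-like cells had 17.2, early meiotic-like 7.01 and oocyte-like 7.92 CPM. All germ cell steps together stood at 16.2 against 31.7 CPM in all somatic groups, a log2 ratio of −0.97 (−1.11 to −0.83), with −0.75 and −1.09 by barcode set.

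RARG, receptor gamma, was at 15.3 CPM (12.6 to 18.3) in premeiotic-like cells, the same range as in endothelial-like (18.9), surface epithelium-like (16.4) and stroma-like (15.7) cells. It was at 5.20 in mitotic-like and 4.10 in early meiotic-like cells. The 42 meiotic cells with oocyte markers gave 8.84 CPM (2.87 to 20.6) from 5 UMIs, an interval that overlapped the early meiotic-like one. The oocyte-like cells had 2 UMIs in all (0.201 CPM, 0.0243 to 0.724), below both beyond counting error. Germ over somatic cells gave a log2 ratio of −0.69 (−0.94 to −0.45), but 0.13 and −1.22 by barcode set, so no direction held in both sets. RXRA, a partner receptor that the RARs need to bind DNA, was counted at low levels everywhere. Its 45 UMIs in premeiotic-like cells made 5.93 CPM (4.33 to 7.94), its 38 in oocyte-like cells 3.81 CPM (2.70 to 5.23), and mitotic-like and early meiotic-like cells had 1.56 and 1.46 CPM. The premeiotic-like excess was 1.24 (0.64 to 1.84) on the log2 scale, with 2.59 and 0.55 by barcode set, the second with an interval that included 0. RXRB, another partner receptor, was not higher in premeiotic-like cells (15.6 CPM against 22.2 in the other germ cell steps), and RXRG had too few UMIs to be compared.

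**Figure D2:**
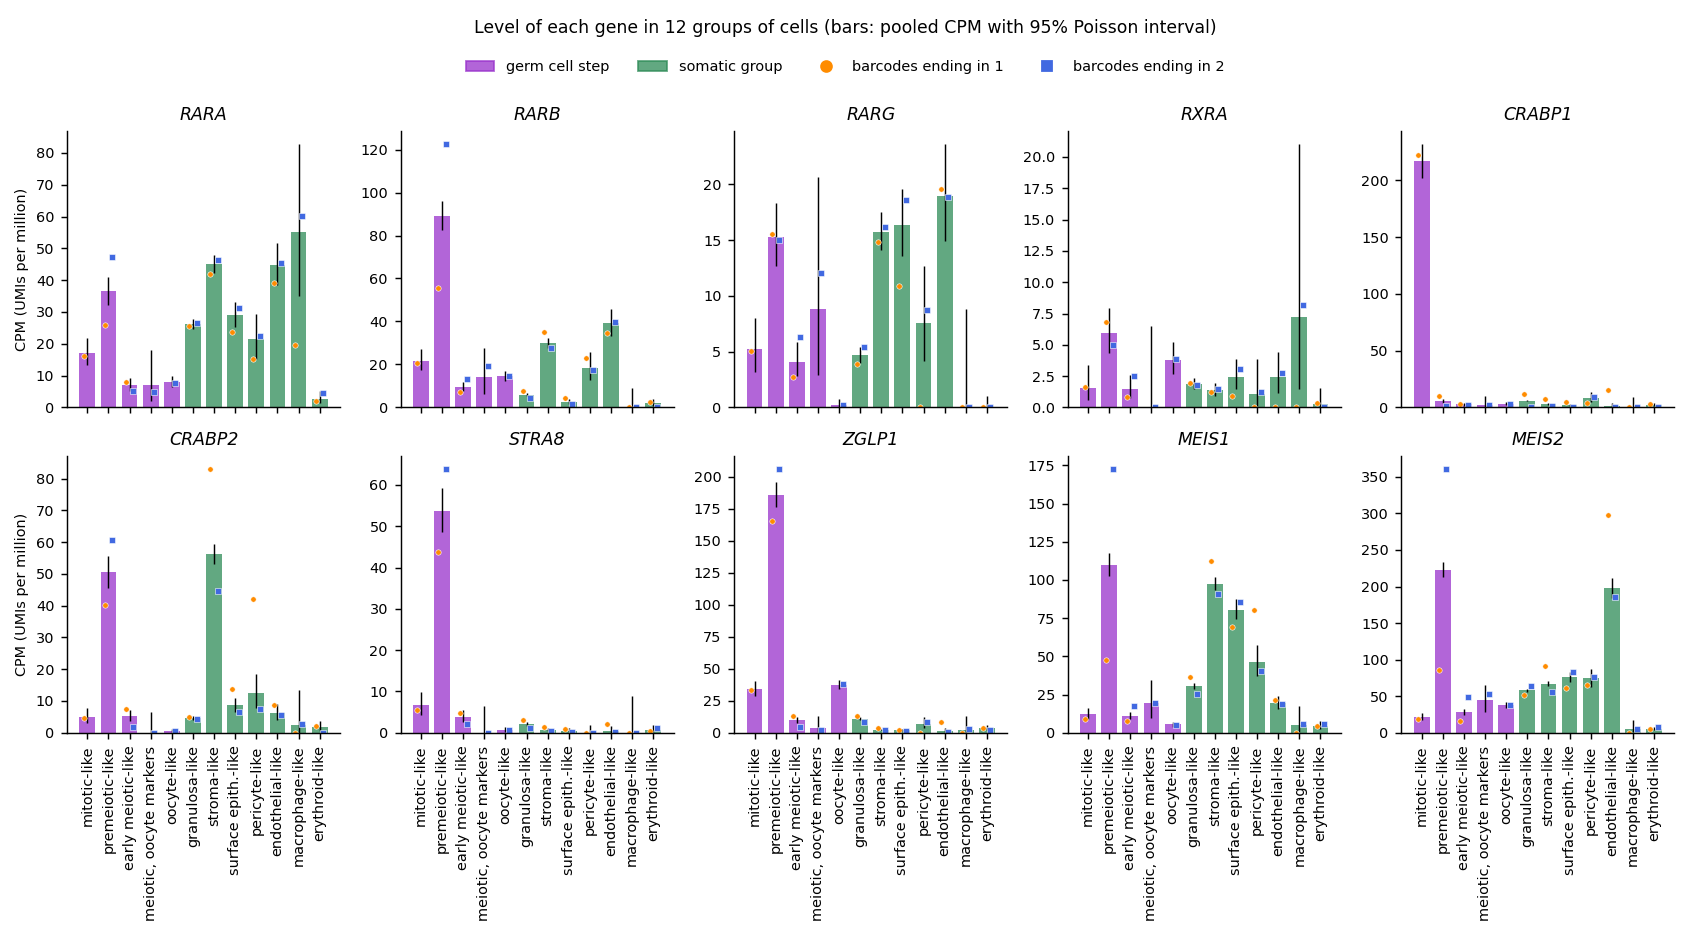
CPM of each gene in the 5 germ cell steps (purple) and 7 somatic groups (green), with 95% Poisson intervals, and the value in each barcode set with at least 20 cells in the group. Premeiotic-like cells have the tallest germ cell bar for every gene except CRABP1, and MEIS1 and MEIS2 show the widest gap between the barcode sets there.

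The 2 binding proteins occupied different germ cell steps. CRABP1 was at 217 CPM (202 to 232) in mitotic-like cells, 5.67 in premeiotic-like, 2.65 in early meiotic-like and 3.21 in oocyte-like cells. The log2 ratio of mitotic-like cells to the other steps was 5.86 (5.55 to 6.18), a 58.0-fold difference. It was the only one of the 10 genes at least 2-fold higher there, against 12.2% of all genes, and 6 were at least 2-fold lower (STRA8, ZGLP1, RXRA, CRABP2, MEIS1 and MEIS2), against 24.2%. These values rest on barcodes ending in 1, where the ratio was 5.18. In that set 1 gene was at least 2-fold higher and 6 lower, as in all cells. The 9 mitotic-like cells ending in 2 had 2 CRABP1 UMIs and a ratio of 2.94 with an interval that included 0. There 5 genes were at least 2-fold higher and none lower, from at most 14 UMIs a gene.

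CRABP2 was low in mitotic-like cells (4.94 CPM, 2.97 to 7.71) and at 50.5 CPM (45.6 to 55.8) in premeiotic-like cells, with 40.3 and 60.7 CPM by barcode set. It returned to 5.29 CPM in early meiotic-like cells, where 40 UMIs were counted, and to 0.602 CPM (0.221 to 1.31) in oocyte-like cells. Its log2 ratio of premeiotic-like cells to the other steps was 4.09 (3.71 to 4.49), with 2.77 and 5.94 by barcode set. The gene was as high in the stroma, at 56.2 CPM (53.1 to 59.5), and the intervals of the stroma-like and premeiotic-like levels overlapped. Pericyte-like cells had 12.4, surface epithelium-like 8.67, endothelial-like 6.07 and granulosa-like 4.66 CPM. Over all groups, the log2 ratio of germ to somatic cells was −0.38 (−0.54 to −0.23), and it was −1.20 among cells of 200 to 3000 detected genes and −1.28 among those with at most 10% mitochondrial UMIs.

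Within the stroma CRABP2 differed between cells of different markers. Stroma-like cells with POSTN, OGN and LUM (1609 cells) had 94.0 CPM (86.8 to 102), and those with WFDC1, SPON2 and C7 (1383 cells) 28.2 CPM (24.9 to 31.8). The first sub-group held 1204 cells ending in 1 and the second 106, so the sets were looked at apart. In barcodes ending in 2 the values were 106 against 26.9 CPM. In those ending in 1 they were 89.2 (80.9 to 98.1) against 64.2 CPM (39.2 to 99.2, from 20 UMIs), which overlapped, so the difference was larger than counting error in 1 set. RARA was at 40.5 and 46.3 and RARB at 32.3 and 27.9 CPM in the 2 sub-groups, with overlapping intervals.

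STRA8, the retinoic acid-induced gatekeeper of meiotic entry, was nearly limited to germ cells around that step. Its 408 UMIs in premeiotic-like cells made 53.8 CPM (48.7 to 59.3), with 43.8 and 63.8 CPM by barcode set. Mitotic-like cells had 26 UMIs (6.76 CPM, 4.41 to 9.90), early meiotic-like cells 29 (3.84 CPM, 2.57 to 5.51), oocyte-like cells 7 (0.702 CPM, 0.282 to 1.45) and meiotic cells with oocyte markers none, which allows up to 5.30 CPM at 3 counts. The log2 ratio of premeiotic-like cells to the other steps was 4.25 (3.86 to 4.66), a 19.0-fold difference, with 3.13 and 5.54 by barcode set. Among cells of 200 to 3000 detected genes alone it was 3.14. The other steps were not the same cells in the 2 sets, mostly mitotic-like and early meiotic-like in the first and oocyte-like and early meiotic-like in the second. No somatic group exceeded 2.15 CPM, the granulosa-like level.

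ZGLP1 followed the same order with a higher baseline. It was at 34.0 CPM (28.5 to 40.4) in mitotic-like, 186 CPM (176 to 196) in premeiotic-like and 9.92 CPM (7.80 to 12.4) in early meiotic-like cells. Premeiotic-like cells gave 166 and 206 CPM by barcode set, and their log2 ratio to the other steps, 2.81 (2.67 to 2.95), was 2.95 and 2.79, close in both sets. Unlike STRA8, ZGLP1 was counted again in oocyte-like cells, at 37.5 CPM (33.8 to 41.5) from 374 UMIs, all of them in barcodes ending in 2. The 17 oocyte-like cells ending in 1 had none. In the RefSeq annotation of a later genome assembly of the species, ZGLP1 overlaps FDX2, a gene for a mitochondrial ferredoxin, and the counts have no row named FDX2. Whether ZGLP1 counts here include reads of FDX2 cannot be told apart. In the same annotation CRABP2 and MEIS1 overlap long non-coding genes.

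MEIS1 and MEIS2 encode homeodomain factors that bind DNA with partner proteins and respond to retinoic acid in the limb and elsewhere. In germ cells MEIS1 was at 12.0 CPM (8.75 to 15.9) in mitotic-like, 110.0 CPM (103 to 118) in premeiotic-like and 11.1 CPM (8.86 to 13.8) in early meiotic-like cells. MEIS2 was at 21.6 CPM (17.2 to 26.7), 223 CPM (213 to 234) and 28.3 CPM (24.6 to 32.4) in the same steps. Their log2 ratios of premeiotic-like cells to the other steps were 3.63 (3.40 to 3.86) and 2.80 (2.67 to 2.93). Among the 9 genes high at this step the barcode sets differed most for this pair, since premeiotic-like cells gave 47.5 and 172 CPM for MEIS1 and 85.9 and 361 for MEIS2. Both were above the other steps within each set, at 2.49 and 4.23 for MEIS1 and 2.31 and 3.11 for MEIS2. Whether the gap between sets goes with stage, depth or the makeup of the group cannot be told apart.

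In the soma the pair parted. MEIS1 was at 97.5 CPM (93.4 to 102) in stroma-like, 80.6 CPM (74.2 to 87.3) in surface epithelium-like, 46.3 in pericyte-like, 30.7 in granulosa-like and 19.4 in endothelial-like cells. MEIS2 was highest in endothelial-like cells, at 198 CPM (185 to 212) with 298 and 185 by barcode set, and lay between 57.9 and 76.3 CPM in granulosa-like, stroma-like, pericyte-like and surface epithelium-like cells. Macrophage-like and erythroid-like cells had at most 5.51 CPM of either gene. The log2 ratio of stroma-like to granulosa-like cells was 1.67 (1.57 to 1.77) for MEIS1, with 1.62 and 1.85 by barcode set. For MEIS2 it was 0.21 (0.11 to 0.31), but 0.82 and −0.17 by set, so its direction did not hold.

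**Figure D3:**
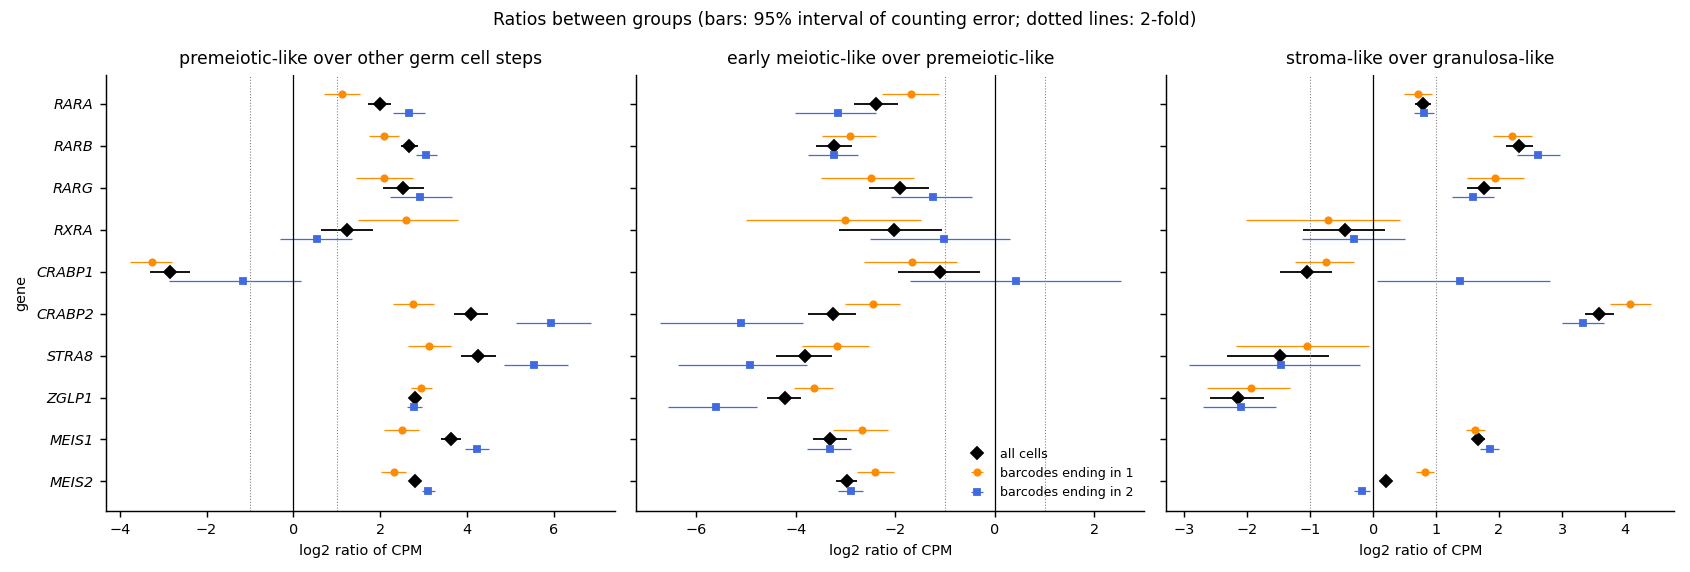
Log2 ratios of CPM for the 10 genes in 3 comparisons, for all cells (black) and within each barcode set, with 95% intervals of counting error and dotted lines at 2-fold. In the left panel 9 genes lie right of the upper dotted line in all cells, from RXRA at 1.24 to STRA8 at 4.25, and CRABP1 lies at −2.83.

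The step from mitotic-like to premeiotic-like cells taken alone gave the same 9 genes as at least 2-fold higher, against 16.9% of 11698 genes, and CRABP1 as lower, against 11.2%. The limit given above for counts at the premeiotic-like step applies here too. The largest log2 ratios were 3.37 for MEIS2, 3.35 for CRABP2, 3.20 for MEIS1 and 2.99 for STRA8, and CRABP1 was at −5.26 (−5.73 to −4.81). In barcodes ending in 1, which hold 318 of the 327 mitotic-like cells, 8 were at least 2-fold higher and RARA was at 0.66. In those ending in 2, with only 9 mitotic-like cells, 4 were at least 2-fold higher and 2 at least 2-fold lower. From premeiotic-like to early meiotic-like cells the log2 ratios ran from −4.23 for ZGLP1 and −3.81 for STRA8 to −1.90 for RARG and −1.10 for CRABP1.

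From early meiotic-like to oocyte-like cells the genes went separate ways. ZGLP1, at 1.92 (1.56 to 2.30), and RXRA, at 1.39 (0.39 to 2.51), were at least 2-fold higher in oocyte-like cells, against 18.7% of 12732 genes. STRA8 (−2.45), RARG (−4.35), CRABP2 (−3.14) and MEIS1 (−1.04) were at least 2-fold lower, against 28.0%. RARA, RARB, CRABP1 and MEIS2 lay within 2-fold. Nearly all oocyte-like cells had barcodes ending in 2. Within that set ZGLP1 was at 3.17 and RXRA at 0.65, so the RXRA difference fell below 2-fold there, while the same 4 genes were at least 2-fold lower, STRA8 and CRABP2 with intervals that included 0.

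Across all germ and somatic cells, 4 genes were at least 2-fold higher in the germ line: STRA8 at 3.54 (3.23 to 3.86), ZGLP1 at 3.34 (3.20 to 3.48), CRABP1 at 2.85 (2.67 to 3.03) and RARB at 1.22 (1.10 to 1.35), against 26.3% of 15952 genes. None was at least 2-fold lower, against 24.5%, and the nearest was RARA. A share of 4 in 10 is not far from that of all genes. Within barcodes ending in 1 the RARB ratio was 0.95, just under 2-fold, so 3 genes were at least 2-fold higher there, and 1 was lower. Within those ending in 2, 5 were higher, RXRA at 1.01 among them, and RARA (−1.09) and RARG (−1.22) were lower. The absence of lower genes therefore held in neither set alone.

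Stroma-like cells differed from granulosa-like cells in 7 of the 10 genes. CRABP2, at 3.59 (3.36 to 3.83), RARB, at 2.32 (2.10 to 2.55), RARG, at 1.75 (1.49 to 2.02), and MEIS1 were at least 2-fold higher in stroma-like cells, against 9.37% of 14606 genes, and all 4 held in both barcode sets. STRA8 (−1.47), ZGLP1 (−2.15) and CRABP1 (−1.06) were at least 2-fold lower, against 17.5%. For CRABP1 the sets disagreed, at −0.76 and 1.37. RARA was 0.79 (0.66 to 0.92) and RXRA −0.45 (−1.11 to 0.19).

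The lower 3 are the genes of germ cells, and their levels in granulosa-like cells moved with germ cell markers. In granulosa-like cells with proliferation markers (654 cells) STRA8 was at 5.04 CPM (3.83 to 6.51), ZGLP1 at 24.8 CPM (22.0 to 27.9), CRABP1 at 15.7 CPM (13.5 to 18.2) and RARB at 15.5 CPM (13.4 to 18.0). In those without (2782 cells) the values were 0.742, 4.01, 1.58 and 1.63 CPM in the same order. As a share of the level in all germ cell steps, the former were 31.7%, 36.8%, 49.9% and 46.7%. Beside them the germ cell markers DDX4 and DAZL stood at 19.9% and 32.4%, against 7.72% and 4.49% in granulosa-like cells without proliferation markers. The 10 germ cell class markers had medians of 10.9% and 4.1%. With proliferation markers they ran from 5.29% to 32.4%, DAZL being the highest, so the 4 genes lay above the typical germ cell marker. The proliferating cells were also deeper, with medians of 13161 against 5325.5 UMIs. The part of germ cell RNA in these granulosa-like values was not tested. In stroma-like cells the 10 markers had a median of 2.8% of the germ cell level, STRA8 was at 4.86% and ZGLP1 at 3.64%, whereas RARB was at 90.1%, MEIS1 at 279.8% and CRABP2 at 371%.

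**Figure D4:**
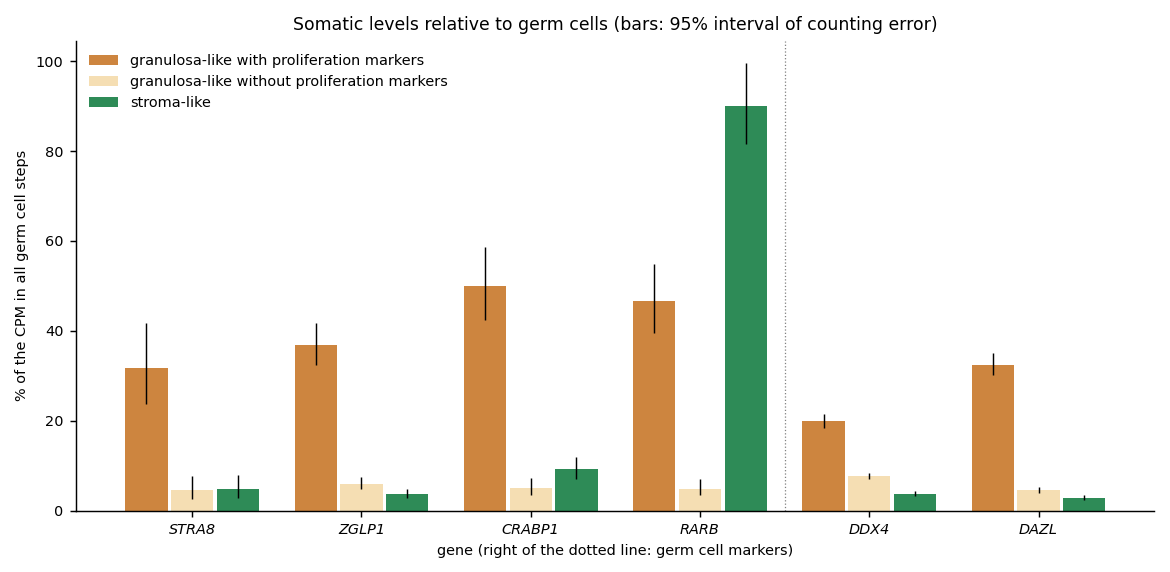
Level of 4 of the genes and of the germ cell markers DDX4 and DAZL in granulosa-like cells with and without proliferation markers and in stroma-like cells, as a percentage of the level in all germ cell steps, with 95% intervals. In proliferating granulosa-like cells all 6 are between 19.9% and 49.9%, and in stroma-like cells RARB is the highest of the 6, at 90.1%. Among the 10 germ cell class markers in those proliferating cells DAZL is the highest, and their median is 10.9%.

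RARA did not follow that pattern in granulosa-like cells, at 25.2 against 26.6 CPM with and without proliferation markers. MEIS2 was modestly higher with them, at 65.9 against 54.8 CPM. MEIS1 (39.9 against 25.9 CPM) and CRABP2 (7.73 against 3.46 CPM) were also higher, all beyond their intervals. For RARG and RXRA the intervals overlapped. By marker sub-group, RARA was at 26.3 CPM in granulosa-like cells with SOST, TOX3 and CRYM, 26.3 in those with LYPD1, CBLN2 and RGS4, and 14.5 CPM (9.80 to 20.7) in those with INHBB and COL4A3. MEIS1 was at 35.7, 14.8 and 12.6 in the same sub-groups, the first above the other two beyond their intervals. That order held in barcodes ending in 2 (45.2, 14.6 and 8.20) and not in those ending in 1 (33.2, 34.4 and 88.6), where the last 2 sub-groups held 12 and 25 cells.

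In single cells the genes were compared within a step after thinning each cell to 5000 UMIs, since deeper cells show more genes of every kind. This left out 48 mitotic-like and 134 premeiotic-like cells. In premeiotic-like cells STRA8 and ZGLP1 showed no detectable tie at this depth. ZGLP1 was seen in 48 of 92 cells (52.2%, 41.5 to 62.7) with a STRA8 UMI and in 182 of 331 (55.0%, 49.5 to 60.4) without one. Before thinning the shares were 173 of 214 cells (80.8%, 74.9 to 85.9) and 192 of 343 (56.0%, 50.5 to 61.3), but the cells with STRA8 had a median of 16465.5 UMIs and those without 7862. RARB was likewise seen in 29 of 92 cells (31.5%, 22.2 to 42.0) with STRA8 and 110 of 331 (33.2%, 28.2 to 38.6) without. In both pairs the intervals overlapped. CRABP2 was in 23 of 92 cells (25.0%, 16.6 to 35.1) with STRA8 and 59 of 331 (17.8%, 13.9 to 22.4) without, also with overlapping intervals.

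In premeiotic-like cells 2 of the contrasts had intervals that did not overlap in all cells but did overlap within each barcode set, where fewer cells were counted. STRA8 was in 63 of 233 cells (27.0%, 21.4 to 33.2) with REC8, a meiotic cohesin and a gate marker of the step, and in 29 of 190 (15.3%, 10.5 to 21.2) without it. Within the sets it was 31 of 130 against 12 of 117 cells in barcodes ending in 1 and 32 of 103 against 17 of 73 in those ending in 2, with overlapping intervals in both. MEIS2 was in 100 of 151 cells (66.2%, 58.1 to 73.7) with MEIS1 and 112 of 272 (41.2%, 35.3 to 47.3) without. Within the sets this was 27 of 56 against 57 of 191 cells in barcodes ending in 1, and 73 of 95 against 55 of 81 in those ending in 2, with overlapping intervals in both.

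Among mitotic-like cells, CRABP1 went with the pluripotency factor NANOG, itself a gate marker, and ZGLP1 went against it. At 5000 UMIs CRABP1 was seen in 92 of 140 cells (65.7%, 57.2 to 73.5) with NANOG and 47 of 139 (33.8%, 26.0 to 42.3) without. ZGLP1 was seen in 7 of 140 cells (5.0%, 2.03 to 10.0) with NANOG and 27 of 139 (19.4%, 13.2 to 27.0) without. Divided by CRABP1 instead, ZGLP1 was in 5 of 139 cells (3.60%, 1.18 to 8.19) with and 29 of 140 (20.7%, 14.3 to 28.4) without. STRA8 was rare on both sides, in 3 of 140 cells (2.14%, 0.444 to 6.13) with NANOG and 7 of 139 (5.04%, 2.05 to 10.1) without, with overlapping intervals. The mitotic-like gate leaves out cells with many premeiotic markers. Over all germ cells at 5000 UMIs, ZGLP1 was in 34 of 197 cells (17.3%, 12.3 to 23.3) with NANOG and 400 of 1587 (25.2%, 23.1 to 27.4) without. There the intervals overlapped. By barcode set the shares were 16 of 160 against 244 of 852 cells and 18 of 37 against 156 of 735, in opposite directions. In NANOG-positive premeiotic-like cells ZGLP1 was seen in 13 of 24 cells (54.2%, 32.8 to 74.4) at 5000 UMIs. The barcode sets were unequal here too, since 17 of these 24 cells ended in 2 and 138 of the 140 NANOG-positive mitotic-like cells in 1. In barcodes ending in 1 the shares were 2 of 7 against 7 of 138, with overlapping intervals. As background at the same depth, ZGLP1 was in 77 of 2518 granulosa-like cells without NANOG (3.06%, 2.42 to 3.81) and in 15 of 1351 such stroma-like cells (1.11%, 0.62 to 1.82). The share in NANOG-positive mitotic-like cells was not distinguishable from the granulosa-like one, and its interval lay above the stroma-like one. ZGLP1 in granulosa-like cells moved with germ cell markers, and the part of germ cell RNA there was not tested. The granulosa-like share therefore cannot show whether the NANOG-positive share is background. At full depth it was in 34 of 210 NANOG-positive mitotic-like cells (16.2%, 11.5 to 21.9) of a median 12188 UMIs, in 234 of 4149 granulosa-like cells (5.64%) of 5905 UMIs and in 53 of 4212 stroma-like cells (1.26%) of 3526 UMIs.

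**Figure D5:**
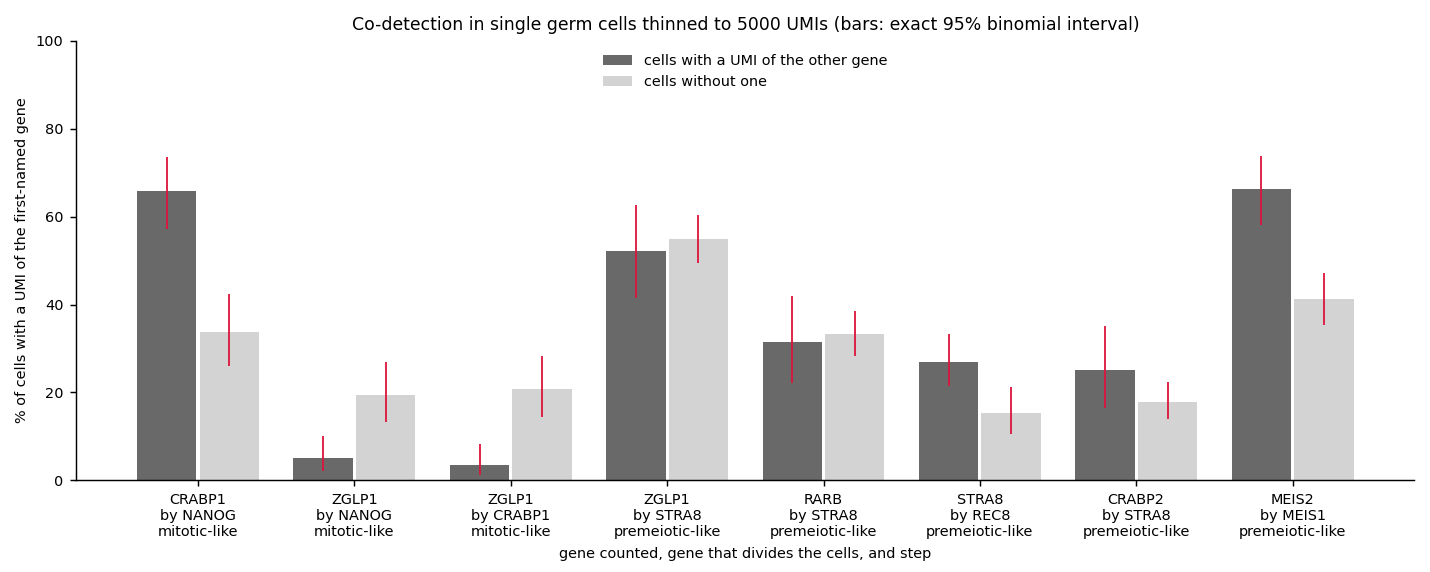
Share of germ cells with a UMI of the first-named gene, among cells with (dark) and without (light) a UMI of the gene named under it, after thinning to 5000 UMIs, with exact 95% binomial intervals. CRABP1 is in 65.7% of NANOG-positive and 33.8% of NANOG-negative mitotic-like cells, and the bars for ZGLP1 by STRA8 are level at 52.2% and 55.0%.

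Other genes of the pathway moved less uniformly. Of 33 further genes for making, carrying, breaking down and answering to retinoic acid, 28 had enough UMIs to be compared at the premeiotic-like step, 10 were at least 2-fold higher than in the other germ cell steps and 3 lower, beside 7.91% and 17.0% of all genes, with a median log2 ratio of 0.34. The highest was CYP26A1, the main retinoic acid-degrading enzyme, at 214 CPM (203 to 224) against 20.0 in the other steps, a log2 ratio of 3.42 (3.27 to 3.58) with 2.33 and 5.29 by barcode set. Also higher were, among others, DHRS3, CYP26C1, RBP4, TGM2, RARRES1 and NR2F2, of which DHRS3 and RBP4 were lower within barcodes ending in 1 (−0.85 and −0.79). DHRS3 and CYP26C1 were also at least 2-fold higher in mitotic-like cells than in the other steps. Between mitotic-like and premeiotic-like cells DHRS3, CYP26C1 and RARRES1 lay within 2-fold, and TGM2 had too few UMIs to be compared. CYP26C1 had too few UMIs to be compared between premeiotic-like and early meiotic-like cells. Lower were the synthesizing enzymes ALDH1A1 (2.11 against 16.2 CPM) and ALDH1A2 (4.61 against 19.6), and the coactivator NCOA3 (65.7 against 153). NCOR1 and NCOA1, a corepressor and a coactivator of the receptors, were level (0.03 and 0.01).

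From the premeiotic-like to the early meiotic-like step 27 pathway genes were compared, of which 4 were at least 2-fold higher (ALDH1A1, ALDH1A2, NCOA3 and RARRES2) and 7 lower (among them DHRS3, CYP26A1, NCOA2 and RARRES1), beside 16.3% and 14.1% of all genes. CYP26A1 stood at 48.6 CPM in mitotic-like, 214 in premeiotic-like, 28.6 in early meiotic-like and 2.61 in oocyte-like cells, the order that STRA8 showed. Between germ and somatic cells 31 were compared, with 6 higher in germ cells (among them CYP26A1, CYP26C1, RBP4, FABP5 and NCOA3) and 18 lower, beside 26.3% and 24.5% of all genes. Between stroma-like and granulosa-like cells 30 were compared, with 10 higher in stroma-like cells and 4 lower, beside 9.37% and 17.5% of all genes. Of the enzymes that make retinoic acid, ALDH1A1 was at 145 CPM (139.9 to 150.0) in stroma-like and 28.7 CPM (27.0 to 30.5) in granulosa-like cells, and ALDH1A2 at 5.37 CPM (4.44 to 6.43) and 96.5 CPM (93.4 to 99.6). Of those that break it down, CYP26B1 was at 2.68 CPM (2.04 to 3.46) and 5.92 CPM (5.18 to 6.75).

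Of 20 named partners and repressors of the STRA8 and ZGLP1 step, 18 were in the table and all could be compared. At least 2-fold higher in premeiotic-like cells were DMRT1 (93.0 against 16.2 CPM), a transcription factor of germ and supporting cells, DNMT1 (233 against 92.7), the maintenance DNA methyltransferase, and ID3 (293 against 60.1), a common target of BMP signals. None was at least 2-fold lower. These counts of 3 and 0 stand beside 7.91% and 17.0% of all genes. DMRT1 was below 2-fold within barcodes ending in 1 (0.70). MEIOC, which keeps meiotic cells from returning to mitosis, was at 20.3 in mitotic-like, 80.4 in premeiotic-like and 362 CPM in early meiotic-like cells. MGA and E2F6, subunits of a complex that silences meiotic genes, were within 2-fold at the premeiotic-like step (−0.41 and 0.40).

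The genes whose levels over the 12 groups were most like each of 4 members were found by Pearson's r of log2(CPM + 5) among 12210 genes with at least 200 UMIs, as a description over groups that share libraries. For STRA8 they were CRYGC (r = 0.98), SLCO1A2, METTL7B, SAMD11 and ASB9, each highest in premeiotic-like cells. For ZGLP1 they were RYR1 (r = 0.95), HOXC13, SAP25, PTPRU and BCAS3, also highest there. For CRABP1 they were TTC36 (r = 0.97), GIP, PPARA, PTPRZ1 and a gene listed under an Ensembl identifier, highest in mitotic-like cells. The list for CRABP2 was divided between the genes NYAP1 (r = 0.93), SPOCK3 and 1 unnamed gene, highest in premeiotic-like cells, and STOML1 and PCOLCE, highest in stroma-like cells.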

How the data were processed

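Per the labels, libraries were processed with Cell Ranger 3.0.2 and Seurat, and the methods name Macaca_fascicularis_5.0 as the genome. The authors deposited 1 table of raw UMI counts for both libraries, which keeps genes seen in at least 3 cells, cells with at least 200 genes and 4675 cells over 3000 genes. Removal of doublets or free RNA is not stated.

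All values were computed from these counts with pandas 2.3.3, numpy 2.4.6, scipy 1.17.1 and matplotlib 3.10.9 under Python 3.11.15. A cell joined a class with at least 3 marker UMIs of 2 or more markers and a score, as a share of the cell's UMIs relative to the 50 highest cells, at least 2 times that of the next class. Germ cells were placed in steps the same way. A comparison used genes with at least 20 UMIs, and 2-fold was the limit for counts of genes. Log2 ratios have exact 95% conditional binomial intervals and shares exact (Clopper-Pearson) 95% binomial ones. A count of 0 was taken to allow 3 counts. UMIs remove PCR copies, but all intervals cover counting error only. The ratio and its interval were tested on simulated Poisson counts, which hold no spread between cells, so such spread was not tested. The thinning was checked on the real counts of DDX4 and VIM. No test between groups was made, since each stage has 1 fetus. The members and gene lists were chosen with earlier results of these data known. All 10 members, lists of pathway genes and partners, and the 5 most similar genes of 4 members were named, except some listed genes that are not reported here. Alternatives are given with their effect in the closing section. No sequence is printed, since no genome of the files' build was used here.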

Additional observations from a re-analysis of the deposited data

Results flagged for a closer look

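Some of the genes were counted in cells that no comparison used, above their level in all somatic groups. In the 1800 germ cells that carried too few step markers to be placed, whose median depth was 1155 UMIs, STRA8 was at 25.4 CPM (20.0 to 31.8) against 1.37 in all somatic groups, ZGLP1 at 76.0 CPM (66.4 to 86.5) against 6.68, RARB at 24.1 CPM (18.9 to 30.3) against 14.3 and CRABP1 at 8.37 CPM (5.41 to 12.4) against 4.37. In the 3278 cells with too few markers of any class, with a median of 1105.5 UMIs, STRA8 was at 5.93 CPM (3.94 to 8.57) and ZGLP1 at 21.2 CPM (17.2 to 25.8). The 3021 germ cells placed in a step had 15.9 CPM of STRA8 and 67.5 of ZGLP1.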

How the results depend on the processing

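Values below are log2 ratios of STRA8, ZGLP1 and RARB (premeiotic-like over other germ cell steps), CRABP1 (mitotic-like over others), CRABP2, RARA, RARG and RXRA (germ over soma) and MEIS1 and MEIS2 (stroma-like over granulosa-like), and the share of NANOG-positive mitotic-like cells with ZGLP1, reported as 16.2%. Doubling the marker minimum moved none of them beyond counting error. With cells of 200 to 3000 genes STRA8 was 3.14, RARB 1.90, CRABP1 5.51, CRABP2 −1.20, RARG −1.21, MEIS1 2.08, MEIS2 0.41 and the share 9.68%. With at most 10% mitochondrial UMIs STRA8 was 3.61, ZGLP1 3.19, CRABP1 5.32, CRABP2 −1.28, MEIS1 1.33 and MEIS2 0.35. CRABP2 was past 2-fold lower in germ cells under both. With mixed cells kept STRA8 was 3.37, ZGLP1 2.39, RARB 2.26, CRABP1 5.13, CRABP2 −0.14, RARA −0.77, MEIS1 1.56 and the share 22.7%. As means of single-cell CPM STRA8 was 3.45, ZGLP1 3.04, RARB 2.21, CRABP2 −0.92, MEIS1 1.87 and MEIS2 0.43, and with totals without mitochondrial and haemoglobin UMIs MEIS2 was 0.11. In barcodes ending in 1 STRA8 was 3.13, RARB 2.09, CRABP1 5.18, RARA −0.75, RARG 0.13 and MEIS2 0.82, and in those ending in 2 STRA8 was 5.54, RARB 3.06, CRABP1 2.94, RARG −1.22, MEIS1 1.85, MEIS2 −0.17 and the share 50.0%, of 4 cells. Thinned to 1000 UMIs the share was 2.22%, 1 of 45 cells. The causes were not tested. RARG and MEIS2 had no direction common to both endings, and none of these ratios that was past 2-fold in all cells changed direction. Thinning to 5000 UMIs and the count of members under each alternative were chosen after seeing the data, and the count stayed at 9 except for 8 in barcodes ending in 2. No paired analysis was possible because each stage has 1 library and no result comes from a test. Depth limits RXRA, RARG in oocyte-like cells and every value in the 42 meiotic cells with oocyte markers.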
